A study of Mus musculus with 6 samples.

Results

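The genes described here are 10 members of the BCL2 family, the proteins that decide at the mitochondrial outer membrane whether a cell survives or enters apoptosis. The members were listed by symbol: the survival proteins Bcl2, Bcl2l1 and Mcl1, the pore formers Bax and Bak1, and the BH3-only proteins Bcl2l11, Bid, Bad, Bbc3 and Pmaip1. A probe set is a group of short array probes that together give 1 signal, and each probe set assigned to a listed symbol in the platform's annotation table is shown apart. This gave 29 probe sets for 9 genes, of 45037 non-control probe sets on the array. No value is given for Bax, which that table does not list.

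Foxp3-positive CD4 T cells, the regulatory T cells (Treg), were sorted from the gut-draining mesenteric lymph nodes of young mice (4 to 6 weeks old) and measured on 6 mouse arrays, 1 per sample. Induced Treg (iTreg, 3 arrays) came from BALB/c TBmc mice with a Foxp3 GFP reporter that had been given 1% ovalbumin by mouth for 1 week, and are labelled Nrp-negative. TBmc mice lack the recombinase that assembles antigen receptors, so all their T cells share 1 receptor, for ovalbumin, and all their B cells another. Total Treg (WT Treg, 3 arrays) came from wild-type BALB/c mice with the same reporter, with no ovalbumin in their labels. The groups thus differ in genotype, in receptor, in feeding and in the gate, whose parts cannot be told apart. TBmc is missing from the strain given for iTreg replicate 1, and WT Treg replicate 1 carries the Nrp-negative label. In bulk samples of this kind, fewer cells that express a gene and less RNA per cell cannot be told apart.

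In healthy cells BCL2, BCL-XL (from Bcl2l1) and MCL1 hold BAX and BAK in check. BH3-only proteins, made or activated after cytokine loss, DNA damage or death receptor signals, bind the survival proteins or activate BAX and BAK, which then open the outer membrane and release cytochrome c. In Treg, whose number depends on IL-2, MCL1 is needed for survival and BIM, the product of Bcl2l11, is a main driver of death.

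Over the whole table the arrays had been scaled to a common trimmed mean, and their median signals lay between 21.07 and 32.3. The replicate 3 arrays had the brightest spike-in controls in their group, with a mean log2 signal of 12.71 in iTreg and 12.70 in WT Treg against 11.98 to 12.41 on the others. As a measure of RNA quality, Gapdh signal at the 3′ end exceeded that at the 5′ end by a log2 ratio of 2.49 to 3.38 in iTreg and 2.28 to 2.53 in WT Treg. For Actb the same ratio was 0 to 0.376 in iTreg and 0.138 to 0.322 in WT Treg, with overlap. The summed signal of 5 Treg markers was 6418 to 7826 in iTreg and 10989 to 12704 in WT Treg, though Foxp3 itself, on 1 probe set, had a mean signal of only 34.0 ± 19.6 (SD) in iTreg and 27.0 ± 18.3 in WT Treg. Summed signals of 5 CD4 T cell genes were 13281 to 16521 and 11758 to 17337. Those of 2 CD8 T cell genes were 101 to 225 in iTreg and 73.2 to 107 in WT Treg. Those of 4 B cell genes were 49.4 to 110 and 50.1 to 111, and those of 5 myeloid genes 88.5 to 116 and 51.7 to 72.4. Sums for 4 dendritic cell genes were 16.2 to 42.3 and 20.0 to 46.0, for 2 NK cell genes 8.91 to 27.6 and 12.8 to 18.4, for 2 erythroid genes 16.8 to 86.6 and 44.0 to 55.5, and for 4 stromal genes 369 to 790 and 399 to 429. None of the 5 myeloid, 4 dendritic cell and 2 NK cell genes reached the level needed for testing. Of the stromal genes only Pecam1 reached it, and it made up most of that sum, with signals of 345 to 735 in iTreg and 341 to 385 in WT Treg. The part of these differences in the results below was not tested.

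Promoter sequences are shown for the 2 member windows that hold the core forkhead motif TGTTTAC, since forkhead factors of the FOXO family are known activators of death genes and Foxo3 is among the regulators described further down. RefSeq (GRCm38.p6) gave 15 promoter windows of 300 bases, 250 before to 50 after a start site, for 9 of the members, and none for Pmaip1. The motif, read on both strands, lay in 1 of 2 windows of Bcl2l11 and in 1 of 3 windows of Bbc3, and in 3.65% of all 32851 windows. Counted from the start site, its first base lay at -227 in Bcl2l11, on the minus strand, and at -167 in Bbc3, on the plus strand. The sequences run 5′ to 3′ on the gene's strand, which is the plus strand in both. Capitals mark the forkhead motif, read as GTAAACA in Bcl2l11, and also a CCAAT box (CCAAT, here read as ATTGG), which 37.41% of all windows hold.
Bcl2l11 (chr2:128125788-128126087, plus strand): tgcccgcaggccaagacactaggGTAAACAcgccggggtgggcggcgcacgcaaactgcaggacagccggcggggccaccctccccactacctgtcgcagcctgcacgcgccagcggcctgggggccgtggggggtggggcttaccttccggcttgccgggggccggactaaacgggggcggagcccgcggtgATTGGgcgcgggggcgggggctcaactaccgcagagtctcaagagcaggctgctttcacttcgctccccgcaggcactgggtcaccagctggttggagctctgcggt
Bbc3 (chr7:16310011-16310310, plus strand): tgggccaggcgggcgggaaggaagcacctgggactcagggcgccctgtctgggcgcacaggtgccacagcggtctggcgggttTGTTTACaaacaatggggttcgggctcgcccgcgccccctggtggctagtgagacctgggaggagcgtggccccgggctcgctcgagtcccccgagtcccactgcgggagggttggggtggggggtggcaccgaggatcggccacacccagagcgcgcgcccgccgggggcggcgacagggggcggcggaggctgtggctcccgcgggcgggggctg
A match describes these letters and is not a site of binding. The palindrome TTCNNNGAA, the form bound by STAT factors, was in 0 of the 15 windows and in 8.3% of all windows, and the TATAAA core, read on both strands, in 0 of 15 and 13.62%. The GC box GGGCGG was in 10 of 15 windows, of 7 genes, and in 35.66% of all windows. The E-box of MYC, CACGTG, was in 2 of 15 windows, of Bax and Bbc3, and in 7.15% of all windows. Myc is also among the regulators described further down. The windows of the members had a median GC content of 65.67%, from 49.33% to 78.0%, beside a median of 52.67% over all windows.

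No member probe set was called different between iTreg and WT Treg. Of the 29 probe sets, 26 of 8 genes reached the level needed for testing, a mean log2(signal + 16) of 5.419 over the 6 arrays, which corresponds to a signal of 26.8. Limma, with p-values adjusted over all 22519 probe sets tested, called 0 of the 26, and 0.0311% of all probe sets, at an adjusted p under 0.05. At an unadjusted p under 0.05 it gave 1 of 26 members (3.85%), beside 6.26% of all probe sets. In iTreg 8 of the 26 differences were positive and 18 negative, beside 10773 positive and 11742 negative over all probe sets tested. All 5 probe sets of Bcl2 are among the 18, and they read 1 transcript pool. The median log2 difference of the members was -0.13 beside -0.02 over all probe sets. For 21 of the 26 the difference between groups was smaller than the wider of the ranges within the groups. The share of all probe sets for which this holds was not computed. The 95% interval of the difference, not adjusted for the number of probe sets, lay within a 2-fold change either way for 11 of the 26 and reached past it for the other 15. Without both replicate 1 arrays, whose labels are in doubt, limma called no member either. The 11 with narrow intervals were all 6 probe sets of Mcl1, 3 of 5 of Bcl2 and 2 of 5 of Bcl2l11.

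**Figure D1:**
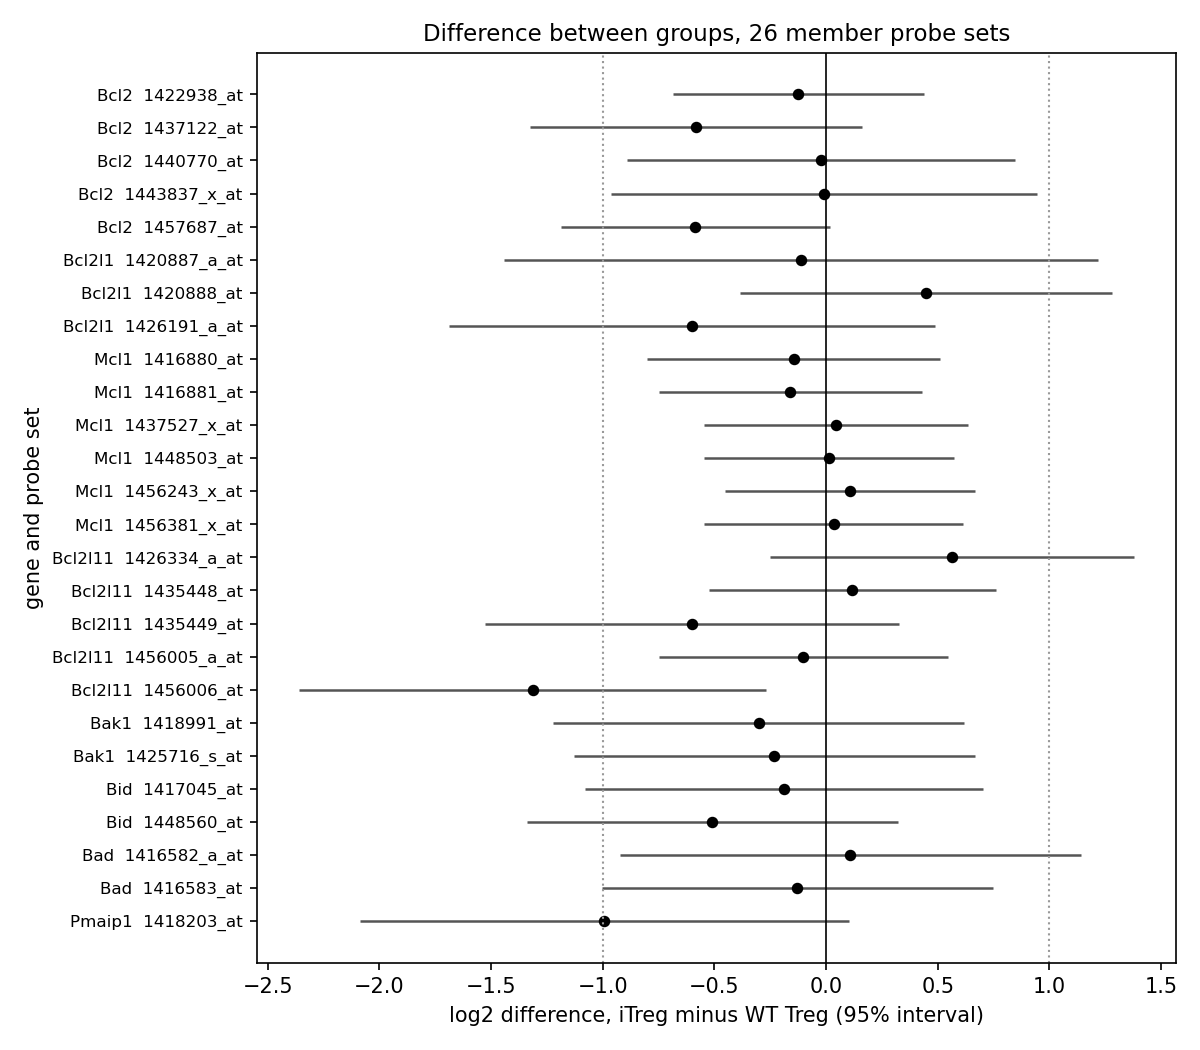
Log2 difference in signal, iTreg minus WT Treg, for the 26 member probe sets tested (points), with 95% intervals from limma (lines); dotted lines mark a 2-fold change in either direction. The intervals of 25 of the 26 include 0, and the exception is a Bcl2l11 probe set at -1.31.

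Groups without overlap were seen for 5 member probe sets. In 1 of 26 (3.85%) every iTreg array lay above every WT Treg array, which held for 4.63% of all probe sets tested. In 4 of 26 (15.4%), of the 3 genes Bcl2, Bcl2l11 and Bid, every iTreg array lay below, which held for 6.92% of all. The Bid probe set among these 4 reached the tested level only through its WT Treg values, so its direction was partly set by that filter. Probe sets of 1 gene read the same transcript pool and do not count as separate observations.

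Bcl2, the founding survival protein, was at a high signal in both groups. On the probe set 1422938_at the signals were 3289, 4209 and 5078 on iTreg arrays 1 to 3 and 4491, 4441 and 4571 on WT Treg arrays 1 to 3. The WT Treg arrays were nearly equal and lay inside the span of the iTreg arrays. The log2 difference, iTreg minus WT Treg, was -0.12, its standard error (SE) 0.26 and its 95% interval -0.69 to 0.44 (limma adjusted p = 0.96). It thus did not differ beyond the spread, and the interval leaves room for less than a 2-fold change.

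The other 4 probe sets of Bcl2 were also below 0, and they fell into pairs. On 1457687_at the signals were 1195, 1711 and 1285 on the iTreg arrays and 1732, 2428 and 2135 on the WT Treg arrays (log2 difference -0.59, SE 0.28, unadjusted p = 0.0558, limma adjusted p = 0.807). On 1437122_at they were 263, 165 and 175 on the iTreg arrays and 297, 282 and 333 on the WT Treg arrays (log2 difference -0.58, SE 0.34, limma adjusted p = 0.851). On these probe sets all 3 iTreg arrays were lower than all 3 WT Treg arrays, though neither passed the threshold. Without both replicate 1 arrays the log2 differences were -0.61 and -0.79.

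The remaining pair, 1440770_at and 1443837_x_at, turned on a single array. On 1440770_at the signals were 1213, 944 and 1247 on the iTreg arrays and 1697, 1619 and 544 on the WT Treg arrays (log2 difference -0.02). On 1443837_x_at they were 1115, 1355 and 953 on the iTreg arrays and 1591, 1908 and 480 on the WT Treg arrays (log2 difference -0.01). WT Treg replicate 3 was the lowest of the 6 arrays on both, while WT Treg replicates 1 and 2 lay above every iTreg array. Without WT Treg replicate 3 the log2 differences of this pair were -0.55 and -0.62 (limma adjusted p = 0.974 for each). Leaving out the lowest WT Treg array could only move them down. Without WT Treg replicate 1 they were 0.26 and 0.23, and without WT Treg replicate 2 they were 0.22 and 0.36. The log2 differences of 1457687_at, 1437122_at and 1422938_at without WT Treg replicate 3 were -0.57, -0.52 and -0.11. WT Treg replicate 3 is an array with bright spike-in controls, and the part of this in the low Bcl2 signals was not tested.

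Mcl1, a short-lived survival protein, was high in every array and was the most closely bounded member. On 1448503_at the signals were 3694, 3177 and 2538 on the iTreg arrays and 3073, 3000.2 and 3136 on the WT Treg arrays (log2 difference 0.01, SE 0.26, 95% interval -0.54 to 0.57, limma adjusted p = 0.996). On 1416880_at they were 3845, 4236 and 2487 on the iTreg arrays and 2869, 3837 and 4981 on the WT Treg arrays (log2 difference -0.15). The groups overlapped on all 6 probe sets of Mcl1. Their log2 differences ran from -0.16 to 0.11, with 4 positive and 2 negative, and none of the intervals went below -0.80 or above 0.67. Of the 6, 3 have names that end in _x_at, which marks probes that may match other transcripts.

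Bcl2l1, which encodes the survival protein BCL-XL, was measured on 3 tested probe sets that did not share a direction. On 1420888_at the signals were 135, 104 and 146 on the iTreg arrays and 74.4, 106 and 88.4 on the WT Treg arrays (log2 difference 0.45, SE 0.38, limma adjusted p = 0.894). On 1426191_a_at they were 91.1, 127 and 24.7 on the iTreg arrays and 90.1, 104 and 155 on the WT Treg arrays (log2 difference -0.60, SE 0.50). On 1420887_a_at they were 176, 154 and 19.2 on the iTreg arrays and 93.0, 159 and 60.2 on the WT Treg arrays (log2 difference -0.11).
The low array was iTreg replicate 3 on the last 2, and without it these log2 differences were -0.07 (1426191_a_at) and 0.67 (1420887_a_at). The fourth probe set, 1426050_at, had signals of 4.81 to 19.7 over the 6 arrays and was not tested. All 3 intervals of Bcl2l1 reached past a 2-fold change on at least 1 side, so a difference of that size was not resolved in this gene.

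**Figure D2:**
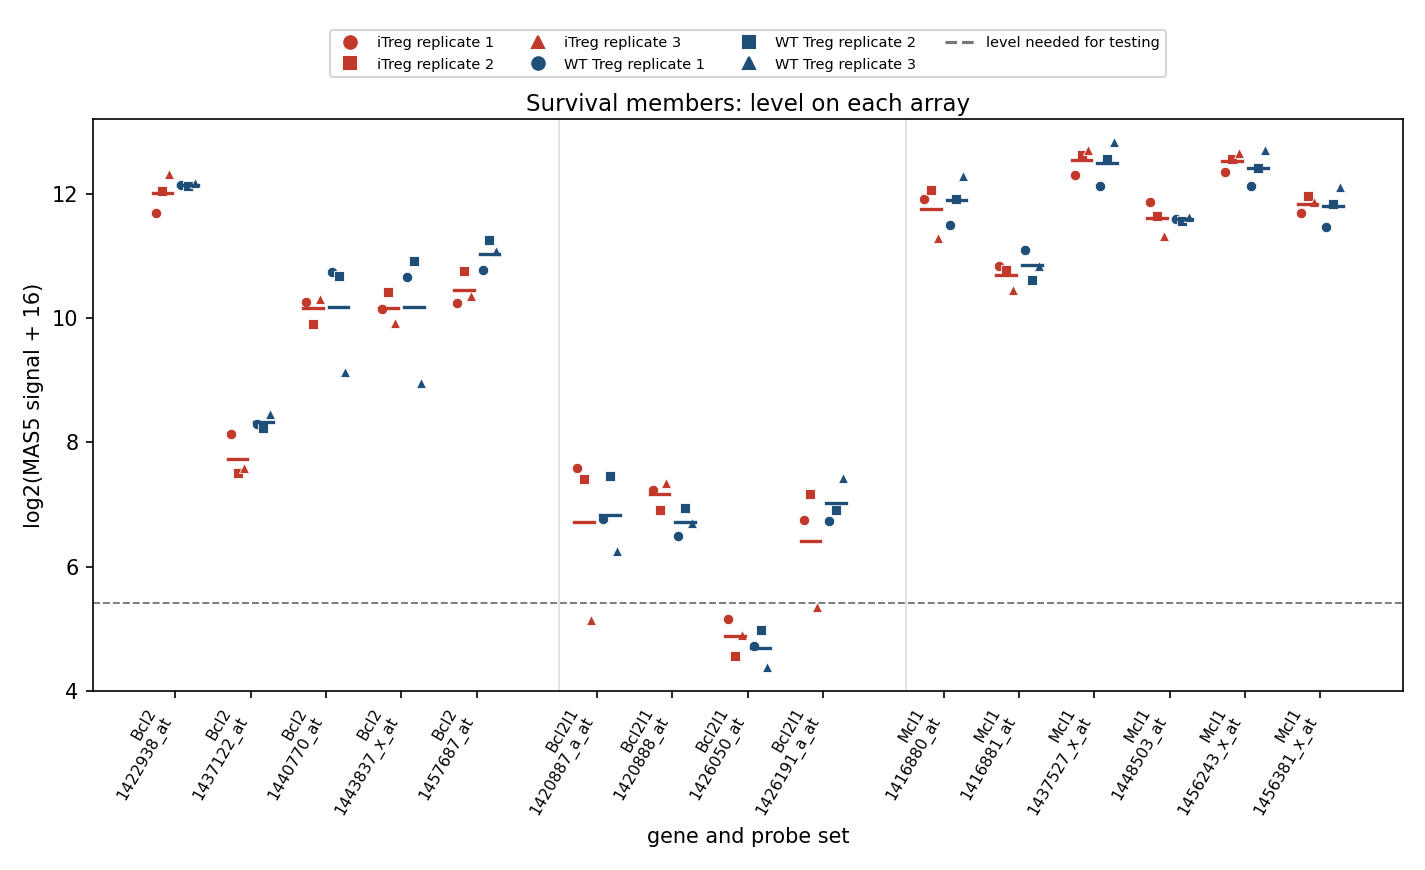
Level of each probe set of the survival genes Bcl2, Bcl2l1 and Mcl1, as log2(MAS5 signal + 16), on the 3 iTreg arrays (red) and 3 WT Treg arrays (blue); the marker shape gives the replicate, short lines are group means and the dashed line is the mean level of 5.419 needed for testing. WT Treg replicate 3 lies below the other arrays on 2 Bcl2 probe sets, and the groups overlap on all Mcl1 probe sets.

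Bcl2l11, which encodes the BH3-only protein BIM, had 5 probe sets whose log2 differences ran from -1.31 to 0.56. On 1456005_a_at the signals were 1303, 2061 and 1143 on the iTreg arrays and 1467, 1410 and 1837 on the WT Treg arrays (log2 difference -0.10, SE 0.30, 95% interval -0.75 to 0.55, limma adjusted p = 0.972). On 1435448_at they were 602, 734 and 988 on the iTreg arrays and 722, 664 and 710 on the WT Treg arrays (log2 difference 0.12, 95% interval -0.52 to 0.76). On these probe sets the groups overlapped and a 2-fold change lay outside the interval.

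On another pair of Bcl2l11 probe sets the groups did not overlap, and they parted in opposite directions. On 1426334_a_at the signals were 141, 135 and 144 on the iTreg arrays and 106, 74.1 and 90.3 on the WT Treg arrays (log2 difference 0.56, SE 0.38, limma adjusted p = 0.855). On 1456006_at they were 61.3, 21.8 and 22.9 on the iTreg arrays and 71.3, 79.6 and 193 on the WT Treg arrays (log2 difference -1.31, SE 0.48, unadjusted p = 0.0179, limma adjusted p = 0.742). The first was higher and the second lower in every iTreg array, and neither passed the threshold.
The second was the member probe set with the smallest p. The iTreg signals of replicates 2 and 3 on it were no higher than the brightest (28.5) of 27 control probe sets without added RNA, the unspiked controls, and without WT Treg replicate 3 its log2 difference was -0.92 (without both replicate 1 arrays, -1.88). The remaining probe set, 1435449_at, gave 19.1, 62.0 and 32.7 on the iTreg arrays and 62.9, 68.9 and 53.4 on the WT Treg arrays (log2 difference -0.60), with overlapping groups.

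Pmaip1, which encodes NOXA, a BH3-only protein that binds MCL1, had the second largest negative log2 difference, on its single probe set. Its signals were 111, 36.4 and 163 on the iTreg arrays and 322, 156 and 146 on the WT Treg arrays (log2 difference -0.99, SE 0.50, 95% interval -2.09 to 0.10, unadjusted p = 0.0719, limma adjusted p = 0.83). WT Treg replicate 1 was the highest array and iTreg replicate 2 the lowest, while iTreg replicate 3 lay above WT Treg replicates 2 and 3. Without iTreg replicate 2 the log2 difference was -0.48.

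Bbc3, which encodes the p53-induced BH3-only protein PUMA, was at the level of the background. Its signals were 35.1, 24.5 and 4.12 on the iTreg arrays and 23.0, 25.7 and 47.3 on the WT Treg arrays. Only 2 arrays, iTreg replicate 1 and WT Treg replicate 3, lay above the unspiked controls, and the probe set was not tested.

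Bid, a BH3-only protein that caspase-8 cuts to link death receptors with mitochondria, had 2 tested probe sets. On 1417045_at the signals were 107, 96.0 and 48.7 on the iTreg arrays and 96.1, 91.7 and 93.5 on the WT Treg arrays (log2 difference -0.19, limma adjusted p = 0.964). On 1448560_at they were 25.8, 15.6 and 20.9 on the iTreg arrays and 31.4, 32.8 and 44.9 on the WT Treg arrays (log2 difference -0.51, SE 0.38, limma adjusted p = 0.883). Each iTreg array was lower on the second, at signals within the range of the unspiked controls. The third, 1447873_x_at, had no signal above 10.98 and was not tested.

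Bad, a BH3-only protein held inactive by phosphorylation and 14-3-3 proteins, varied widely within both groups. On 1416582_a_at the signals were 526, 160 and 209 on the iTreg arrays and 226, 403 and 153 on the WT Treg arrays (log2 difference 0.11, SE 0.48, limma adjusted p = 0.982). On 1416583_at they were 89.5, 88.9 and 50.7 on the iTreg arrays and 77.6, 73.6 and 99.0 on the WT Treg arrays (log2 difference -0.13). The groups overlapped on both.

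Bak1, which encodes the pore former BAK, gave like values on its 2 probe sets. On 1418991_at the signals were 89.9, 223 and 239 on the iTreg arrays and 205, 168 and 281 on the WT Treg arrays (log2 difference -0.30, SE 0.42, limma adjusted p = 0.929). On 1425716_s_at they were 94.8, 195 and 183 on the iTreg arrays and 188, 122.6 and 250 on the WT Treg arrays (log2 difference -0.23). On both, iTreg replicate 1 was lowest and WT Treg replicate 3 highest, and the groups overlapped. Without iTreg replicate 1 the log2 differences were 0.11 and 0.06.

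**Figure D3:**
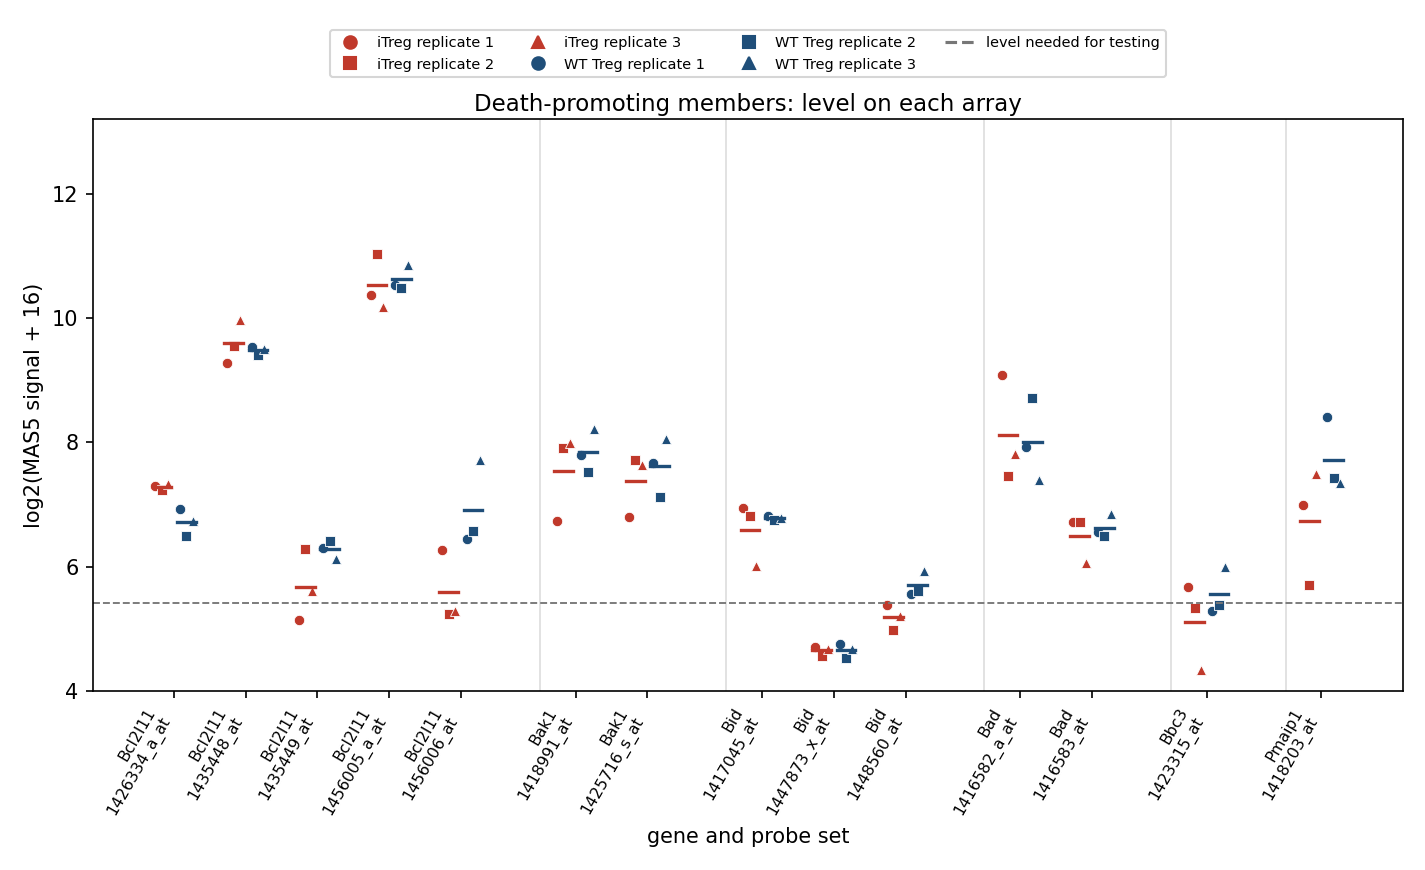
Level of each probe set of the death-promoting genes Bcl2l11, Bak1, Bid, Bad, Bbc3 and Pmaip1, as log2(MAS5 signal + 16), on the 3 iTreg arrays (red) and 3 WT Treg arrays (blue); the marker shape gives the replicate, short lines are group means and the dashed line is the mean level of 5.419 needed for testing. The groups part on 3 probe sets, upward in iTreg on Bcl2l11 1426334_a_at and downward on Bcl2l11 1456006_at and Bid 1448560_at.

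Single arrays shared in several of these values. WT Treg replicate 3 was the highest of the 6 arrays on 11 of the 26 member probe sets (42.3%), beside 19.0% of all probe sets tested. Among these 11 are several probe sets of Mcl1 and those of Bak1, which do not count as separate observations. The array of iTreg replicate 3 was the lowest on 8 of 26 (30.8%), near the 27.4% of all. WT Treg replicate 3 was the lowest on 11.5% of the members, beside 25.96% of all, and iTreg replicate 1 on 23.1%, beside 14.93%. The array of iTreg replicate 2 was the highest on 3.8% of the members, beside 14.69% of all.

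None of the tested probe sets of other death pathway genes was called either. In all, 7 lists of 65 genes held 56 genes with a probe set and 122 tested probe sets of 49 genes. Limma called 0 of the 122, with 3 higher and 5 lower in iTreg at an unadjusted p under 0.05, together 6.56% beside 6.26% of all probe sets. Their median log2 difference was -0.0019, and without overlap between the groups 4 were higher (3.28%, beside 4.63% of all) and 4 lower (3.28%, beside 6.92%).

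Among further BCL2 relatives, 0 of 7 tested probe sets of pore, BH3-only and related genes passed, with a median log2 difference of -0.12. Bnip3, a mitochondrial protein of hypoxia and mitophagy, had signals of 63.9, 8.65 and 17.03 on the iTreg arrays and 92.2, 139 and 111 on the WT Treg arrays (log2 difference -1.68, SE 0.49, limma adjusted p = 0.57). Bcl2l15 had 23.2, 43.9 and 40.6 on the iTreg arrays and 223, 82.6 and 96.6 on the WT Treg arrays (log2 difference -1.44, SE 0.46, limma adjusted p = 0.657). Both were lower in every iTreg array, Bnip3 at signals within the range of the unspiked controls in 2 of 3. Bnip3 reached the tested level only through its WT Treg values, which partly fixes its direction. Bmf, a BH3-only protein tied to the cytoskeleton, had a log2 difference of 0.80 on 1458325_x_at (limma adjusted p = 0.843). The signals there were 238, 166 and 243 in iTreg against 147, 165.7 and 59.7 in WT Treg. By its ending, this probe set may match other transcripts. The other probe sets of Bmf, at signals of 0.47 to 16.7, lay within the range of the unspiked controls and were not tested. Whether the signal of 1458325_x_at comes from Bmf was not tested. Without WT Treg replicate 3 the log2 difference of 1458325_x_at was 0.41. The groups of Bmf barely parted, at 166.01 in iTreg replicate 2 and 165.7 in WT Treg replicate 2. The survival relative Bcl2l2 had a log2 difference of -0.64 on the single probe set tested of that list. That value rests on WT Treg replicate 2, at 123 against 20.4 to 35.4 on the other 5 arrays; without this array the probe set was below the level needed for testing.

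Of the apoptosome and effector caspase list 0 of 15 probe sets passed, with a median of -0.07. Cycs, which encodes the cytochrome c released through BAX and BAK pores, had signals of 446, 577 and 368 on the iTreg arrays and 770, 744 and 1221 on the WT Treg arrays on 1456071_a_at (log2 difference -0.94, SE 0.32, limma adjusted p = 0.708). Its other tested probe sets differed by -1.02 and -0.24. The mitochondrial nuclease gene Endog differed by -1.12, with 1027 in WT Treg replicate 3 and 82.6 to 224 on the other arrays, and by -0.25 without that array; its other tested probe set differed by -0.06. Diablo, an antagonist of caspase inhibitors, differed by -0.54, and by -0.19 without iTreg replicate 3.

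Of the caspase inhibitor list 0 of 17 passed, with a median of 0.06. Birc6, a giant ubiquitin ligase that restrains caspases, was higher in every iTreg array on 1419562_at, with 1390.1, 1281 and 1724 against 995, 1061 and 759 (log2 difference 0.64, unadjusted p = 0.0418, limma adjusted p = 0.786). Its other 5 probe sets differed by -0.44 to 0.25. The 7 probe sets of Xiap differed by -0.50 to 0.39, 4 of them positive. The probe sets of Birc3 differed by 0.24 and 0.06, the first by 0.05 without iTreg replicate 3. Of the death receptor list 0 of 12 passed, with a median of 0.03, and the groups of the genes named overlapped. The receptor Fas differed by -0.77, with a range of -1.14 (without WT Treg replicate 2) to -0.29 (without iTreg replicate 3) when single arrays were left out. The TNF receptor adaptor Tradd differed by 0.68 on 1452622_a_at, and by 0.23 there without iTreg replicate 2 or 0.39 without WT Treg replicate 2. Its other probe sets, too dim to be tested, had log2 differences of -0.06 and -0.52. The caspase-8 inhibitor Cflar differed by 0.57 on 1425686_at and by -0.30 to 0.38 on its other 4 tested probe sets.

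Of the transcriptional regulators 0 of 17 probe sets passed, with a median of 0.20. Foxo3, a forkhead factor that acts when growth factor signals fall, had signals of 879, 897 and 1428 on the iTreg arrays and 559, 532 and 725 on the WT Treg arrays on 1450236_at (log2 difference 0.78, SE 0.31, unadjusted p = 0.0254, limma adjusted p = 0.766). Every iTreg array was higher there, while on its other 2 probe sets, at 0.53 and 0.52, the groups overlapped. The FOXO gene Foxo1 differed by -0.16 to 0.20 on its probe sets, with overlapping groups on each. The growth regulator Myc had 429, 243 and 300.2 on the iTreg arrays and 608, 547 and 958 on the WT Treg arrays (log2 difference -1.08, SE 0.34, limma adjusted p = 0.658), lower in every iTreg array. The cell cycle factor E2f1 had 68.1, 70.0 and 124 against 38.9, 20.9 and 10.4 on 1431875_a_at (log2 difference 1.41, limma adjusted p = 0.638), with 2 of the 3 WT Treg signals within the range of the unspiked controls. This probe set reached the tested level only through its iTreg values, which partly fixes its direction. On the other probe sets of E2f1, which were too dim to be tested, the groups overlapped (log2 differences 0.28 and 0.13).

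Of the genes that act on the family's proteins, 0 of 53 probe sets passed, with a median of -0.04. The survival kinase Pim1 differed by -0.59 and -0.69 on its probe sets, the first by -0.38 without iTreg replicate 2 and -0.91 without iTreg replicate 3, and the outer membrane channel gene Vdac1 by 0.65 on 1437192_x_at, with -0.25 to 0.52 on its other 4 probe sets. Without iTreg replicate 3 the 0.65 of Vdac1 was 0.36, and without iTreg replicate 2 it was 1.07. Usp9x, a deubiquitinase that stabilises MCL1, differed by -0.62 on 1450038_s_at, by -0.39 there without WT Treg replicate 3, and by -0.62 to 0.24 on its other 6 probe sets.

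**Figure D4:**
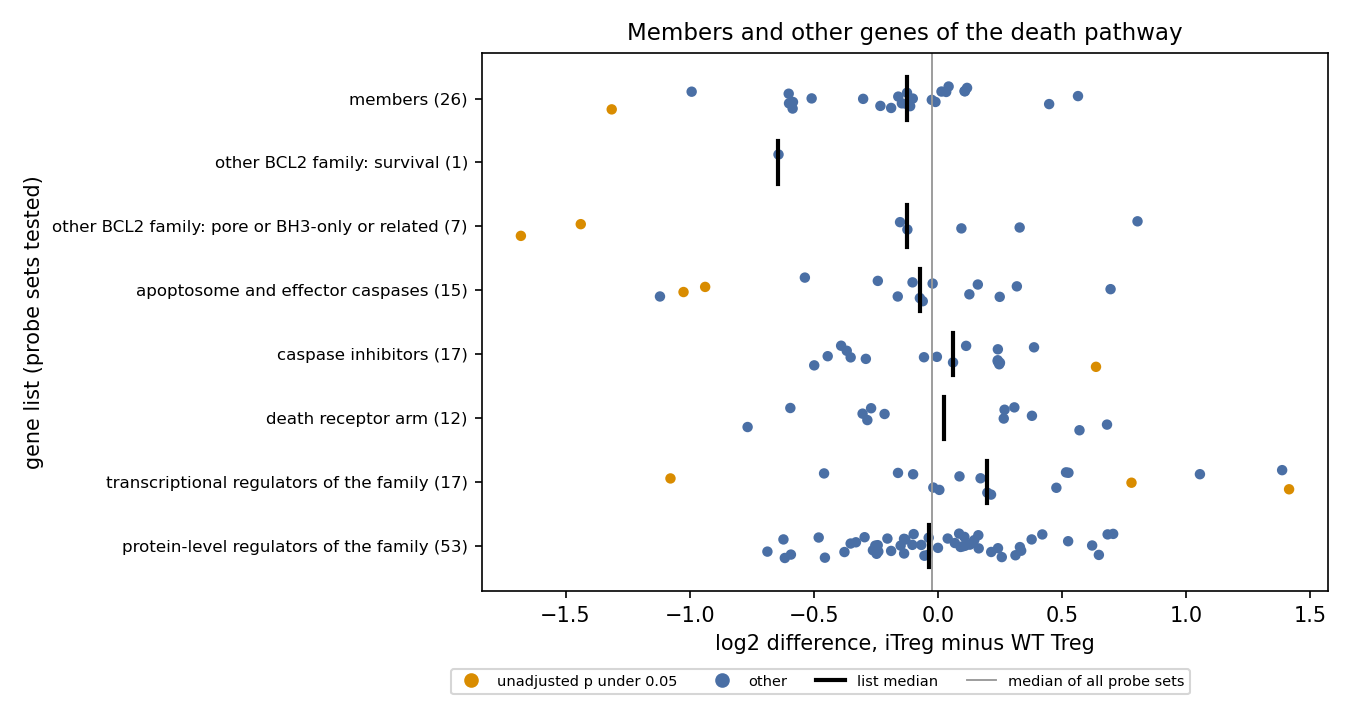
Log2 difference, iTreg minus WT Treg, of each tested probe set (points; the vertical scatter within a row has no meaning) of the 26 member probe sets and of 7 lists of other death pathway genes, with list medians as black bars and the median of all probe sets tested (-0.02) as a grey line. Orange points have an unadjusted p under 0.05, and none passed after adjustment; the list medians run from -0.64, of the single tested probe set of Bcl2l2, where 1 WT Treg array stands apart, to 0.20.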

How the data were processed

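Intensity values were analysed as deposited: MAS5 signals on a linear scale, per the submitters' processing notes, each the level of a probe set; the sources used here do not give the MAS5 version. Each array had a 2% trimmed mean of 150 before any step taken here, and the number of arrays limits the precision. Of 45037 non-control probe sets, 34945 had 1 gene symbol in the platform annotation, 932 several and 9160 none; only the first were named. Signals were taken as log2(signal + 16), which understates the fold change of dim probe sets. Probe sets in the brighter 50% by mean over the 6 arrays were compared, iTreg minus WT Treg, with limma 3.58.1 in R 4.3.3 (lmFit, eBayes with an intensity trend, two-sided) and Benjamini-Hochberg adjustment over all of them at 0.05. The code was tested on simulated data. All member probe sets are accounted for. Of each other list, the 3 genes with the smallest p were named where none passed, and Foxo1 was named as a further FOXO gene. The members and lists were chosen with earlier results of these data known. Groups and replicate numbers come from the sample titles. Nothing in the labels says that replicates came from separate mice, so p-values measure only the spread between these samples, which may be technical. Alternatives were pseudocounts of 1 and 64, 2 scalings, 2 filters, 2 variance models, array weights, 1 probe set per gene, the replicate block and the leaving out of arrays.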

Additional observations from a re-analysis of the deposited data

How the results depend on the processing

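No member probe set and no probe set of the other lists was called under any of the 19 alternatives; the smallest adjusted p of a member was 0.531. Of 463 member values 408 kept their direction, and 9 of 26 probe sets kept it throughout. The filters, the variance models, 1 probe set per gene and the replicate block cannot change a difference. Under these settings the direction was fixed in advance, so the 408 overstates stability. The 19 probe sets of the other lists picked by smallest p kept their direction in all 352 values that could be computed, with an adjusted p of at least 0.347. They were picked in these same arrays, which favours a kept direction, so this is not separate support. Over all genes limma called 7 probe sets, 6 with the replicate block, 14 with median scaling, 20 with array weights, 2 with no filter, 3 with 1 probe set per gene, 2 without both arrays with label doubts, 2 without both replicate 3 arrays, and 0 to 11 without single arrays (0, 3 and 2 without iTreg replicates 1, 2 and 3, and 11, 2 and 2 without the same WT Treg replicates). Same-numbered arrays had correlations of 0.20, 0.04 and 0.12 in their deviations, each the highest for its array. For the replicate 2 arrays the 0.036 lay beside 0.024 and 0.022 for pairs with other numbers. Such values cannot settle a pairing, which the design does not give, and the numbers were not taken as pairs.

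Log2 differences that changed sign without both arrays with label doubts were Bad 1416582_a_at (-0.42), Bak1 (0.081 and 0.092), Bcl2 1422938_at (0.037), 1440770_at (0.20) and 1443837_x_at (0.24), and Mcl1 1437527_x_at (-0.024), 1448503_at (-0.11) and 1456381_x_at (-0.064). Without both replicate 3 arrays they were Bad (-0.044 and 0.20), Bcl2l1 1420887_a_at (0.39) and 1426191_a_at (0.14), Bcl2l11 1435448_at (-0.058) and 1456005_a_at (0.19), Bid 1417045_at (0.097) and Mcl1 1416880_at (0.28). With array weights they were Bad 1416583_at (0.047), Bcl2l1 1420887_a_at (0.14), Bcl2l11 1456005_a_at (0.0065) and Mcl1 1416880_at (0.089). With median scaling they were Bcl2 1440770_at (0.067) and 1443837_x_at (0.082), with quantile normalization Mcl1 1448503_at (-0.037) and 1456381_x_at (-0.012), and with a pseudocount of 64 Bcl2l1 1420887_a_at (0.0015). The cause was not tested. Median scaling moved the median of all probe sets from -0.02 to 0.06.

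Without single arrays the log2 differences that changed sign ranged from -0.37 to 0.46 (Bad 1416582_a_at), -0.24 to 0.091 (Bad 1416583_at), -0.53 to 0.11 and -0.48 to 0.063 (Bak1), -0.27 to 0.039, -0.55 to 0.26 and -0.62 to 0.36 (Bcl2 1422938_at, 1440770_at, 1443837_x_at), -0.55 to 0.67 (Bcl2l1 1420887_a_at), -0.070 to 0.28 and -0.35 to 0.071 (Bcl2l11 1435448_at, 1456005_a_at), -0.37 to 0.098 (Bid 1417045_at), and -0.35 to 0.087, -0.15 to 0.21, -0.11 to 0.16, -0.035 to 0.25 and -0.14 to 0.19 (Mcl1 1416880_at, 1437527_x_at, 1448503_at, 1456243_x_at, 1456381_x_at). Signals near background limit Bbc3, Bid 1448560_at, Bcl2l11 1456006_at and Bcl2l1 1426050_at, and with 3 arrays a group an exact permutation test could not go below p = 0.1.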
